A study of Homo sapiens with 6 samples.

Results

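Described here are 4 genes of the insulin-like growth factor (IGF) binding protein family, IGFBP1, IGFBP3, IGFBP6 and IGFBP7, in SK-OV-3 cells, a line established from a human ovarian cancer. They are the 4 genes with these symbols among the 459 genes of the deposited table, which holds only genes that the authors called different between treated and untreated cells. Libraries FA 1, 2 and 3 came from wild-type cells given 100 µg/ml of fulvic acid (FA), a mixture of soluble acids from decayed organic matter, for 48 h. Libraries control 1, 2 and 3 came from wild-type cells of the same line kept in medium without it. Polyadenylated RNA was sequenced. Whether replicates were grown as separate cultures is not in the labels, and the spread between them may be technical.

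IGF-binding proteins are secreted proteins that hold IGFs away from the IGF receptor, carry them and, once cut by proteases, release them. Most members bind IGFs tightly through paired cysteine-rich domains, and several also act on cells without IGF. IGFBP7 is a related member with a like N-terminal domain and low affinity for IGFs. IGFBP3 is the main IGF carrier of serum. IGFBP1 is known as a liver and decidual product that insulin represses and that can bind integrins through an RGD sequence. IGFBP6 prefers IGF2.

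FA was accompanied by opposite changes within the family. IGFBP1 and IGFBP3 rose, 5.65-fold and 2.53-fold, and IGFBP6 and IGFBP7 fell, 2.85-fold and 4.16-fold. Thus 2 of the 4 were higher and 2 lower, while over all 459 listed genes 25.5% were higher and 74.5% lower in the authors' calls. The members were in the table because of this contrast, so their changes are given as a description and no test of them is reported. The values that chose them, in the authors' deposited table, were log2 fold changes of FA over control of 2.56 for IGFBP1, 1.40 for IGFBP3, -1.45 for IGFBP6 and -1.999 for IGFBP7. The FDRs of the authors' deposited table were 9.9e-62, 1.18e-48, 7.14e-11 and 1.04e-22 for IGFBP1, IGFBP3, IGFBP6 and IGFBP7. The table begins at an absolute log2 fold change of 1.00 and ends at an FDR of 0.00977, and IGFBP3 stood nearest to the first limit and IGFBP6 to the second. The other family members IGFBP2, IGFBP4 and IGFBP5 are not rows of this table and were not analysed here.

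The members lie on 3 chromosomes (GRCh38, GENCODE release 29). IGFBP1 (ENSG00000146678, chromosome 7, positions 45888357 to 45893668, plus strand) and IGFBP3 (ENSG00000146674, chromosome 7, positions 45912245 to 45921874, minus strand) are neighbours that point towards each other. The gap between them is 18576 bases and holds 0 annotated genes. Each was the only listed gene within 1 Mb of the other, among 8 annotated protein-coding genes within that distance. IGFBP6 (ENSG00000167779, chromosome 12, positions 53097436 to 53102345, plus strand) had 4 listed genes within 1 Mb, among 64 annotated protein-coding genes. These were the keratin genes KRT5, KRT6A, KRT81 and KRT86, with log2 fold changes of -2.29, -2.07, -4.27 and -1.15 in the authors' deposited table. All 4 were lower, where 74.5% of all listed genes were lower. KRT81 lies within the bounds of KRT86, so their counts may be shared, and these rows are not separate observations about the region. IGFBP7 (ENSG00000163453, chromosome 4, positions 57030773 to 57110385, minus strand) had 0 listed genes within 1 Mb.

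Sequence upstream of the start is shown for IGFBP3, the member with the highest level and the largest difference in level. It is the 250 bases before the RefSeq start (GRCh38.p14), read 5′ to 3′ on the strand of the gene, chr7:45921273-45921522 on the minus strand. GENCODE bounds the gene further upstream, so that the window lies inside the bounds given above, and 2 of its bases fall in GENCODE exons of IGFBP3. Capitals mark matches, on either strand, to GCGTG (the core bound by the aryl hydrocarbon receptor AHR with ARNT, and one form of the core read by hypoxia-inducible factors), TATANA (the TATA box core) and GGGCGG (the GC box of SP1). The motifs were chosen after the sequence and the changes were seen.
IGFBP3: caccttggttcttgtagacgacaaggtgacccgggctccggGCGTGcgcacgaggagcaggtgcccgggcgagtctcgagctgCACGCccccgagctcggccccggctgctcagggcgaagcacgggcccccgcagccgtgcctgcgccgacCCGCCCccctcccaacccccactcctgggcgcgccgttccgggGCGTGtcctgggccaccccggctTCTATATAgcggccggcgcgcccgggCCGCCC
The stretch is 76% G and C, above the median of 58% over all stretches before RefSeq starts, and holds 32 CG dinucleotides. GCGTG occurs 3 times, starting 209, 167 and 55 bases before the start. At least 1 match was found in 32.2% of 35114 stretches of the same length before RefSeq starts, and 3 or more in 3.16%. The shares of stretches given here were not matched for G and C. They therefore do not show how rare the matches are in a stretch as rich in G and C as this one. TATANA matches overlap each other from 32 bases before the start, and 17.7% of all stretches hold one. GGGCGG, found in 42.6% of all stretches, occurs 2 times. GTAAACA, a core bound by FOXO factors that 2.98% of all stretches hold, has 0 matches in this window. Matches to different motifs do not overlap. These matches describe the letters of the window and were not tested for binding or use. The window before the RefSeq start of IGFBP6 is not shown, since 231 of its 250 bases lie in GENCODE exons of that gene.

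Implied depth was 39900000 to 50900000 fragments per FA library and 43500000 to 48800000 per control library, as recovered from counts and FPKM (fragment counts scaled by transcript length and depth). Across 371 genes, which are no independent replicates, deviations of each library from its group mean correlated with GC content at a Spearman rho of 0.054, 0.19 and -0.26 in FA 1, 2 and 3, against -0.77, 0.36 and 0.68 in control 1, 2 and 3. Control 1 thus deviated in the direction opposite to control 2 and 3. Deviations from a mean of 3 cancel, and control 3 lay nearly as far out as control 1. Relative to the mean of control 2 and 3, control 1 was lower by a log2 difference of -0.61 for IGFBP6, whose longest coding transcript is 64.1% G and C, above 92.2% of these genes. The same difference was -0.53 for IGFBP7, -0.32 for IGFBP1 and -0.040 for IGFBP3, with 52.1%, 50.2% and 49.5% G and C. Values without control 1 are given beside the results below, and the part of GC content in them was not tested. Without control 3 instead, log2 fold changes of FA over control were 2.63, 1.38, -1.36 and -1.89 for IGFBP1, IGFBP3, IGFBP6 and IGFBP7. The log2 ratio of their summed level was then 0.70. Except for IGFBP6, these lay further from the values of all libraries than those without control 1. None of 9 markers of ovarian epithelial cancer cells was among the listed genes, so the cell line label could not be checked against them. Of 18 markers of other cell types, COL1A1, a fibroblast collagen, was listed, at 0.317, 0.138 and 0.187 FPKM in FA 1, 2 and 3, against 0.473, 0.387 and 0.546 FPKM in control 1, 2 and 3. Its part in the results was not tested. In bulk RNA, fewer cells that express a gene and less RNA per cell cannot be told apart.

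IGFBP1 had 52.0, 51.6 and 47.2 FPKM in FA 1, 2 and 3, against 7.60, 8.57 and 10.5 FPKM in control 1, 2 and 3. The lowest FA library had 4.50 times the level of the highest control library. Counts behind these levels were 3430, 3808 and 3967 in FA libraries and 546, 692 and 822 in control libraries. The mean level was 50.3 ± 2.7 FPKM in FA libraries and 8.88 ± 1.5 FPKM in control libraries (SD, n = 3 each). The log2 fold change, from an edgeR fit over all 459 genes, was 2.50 with a standard error of 0.16, and 2.40 without control 1. Among the 117 higher genes of the authors' deposited table, IGFBP1 ranked 9 by log2 fold change and 3 by FDR. By FPKM among all listed genes it ranked 19 to 21 in the FA libraries and 108 to 128 in the control libraries.

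IGFBP3, the most abundant member in every library, had 591.0, 618.4 and 597.6 FPKM in FA 1, 2 and 3, against 231.6, 229.2 and 252.1 FPKM in control 1, 2 and 3. Replicates of this gene lay closest together, with a coefficient of variation of 2.37% in FA libraries and 5.30% in control libraries. Counts were 53395, 62455 and 68480 in FA libraries and 22899, 25155 and 27028 in control libraries. This single gene took 0.134% to 0.140% of the implied fragments of each FA library, and 0.0515% to 0.0570% of each control library. The log2 fold change was 1.34 with a standard error of 0.11, and 1.33 without control 1. Its difference in level was the largest of the members, 364.7 FPKM more in FA libraries (602.4 ± 14.3 FPKM in FA libraries and 237.7 ± 12.6 FPKM in control libraries). By FPKM it ranked 2 of 459 in each FA library and 4 to 6 in the control libraries.

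**Figure D1:**
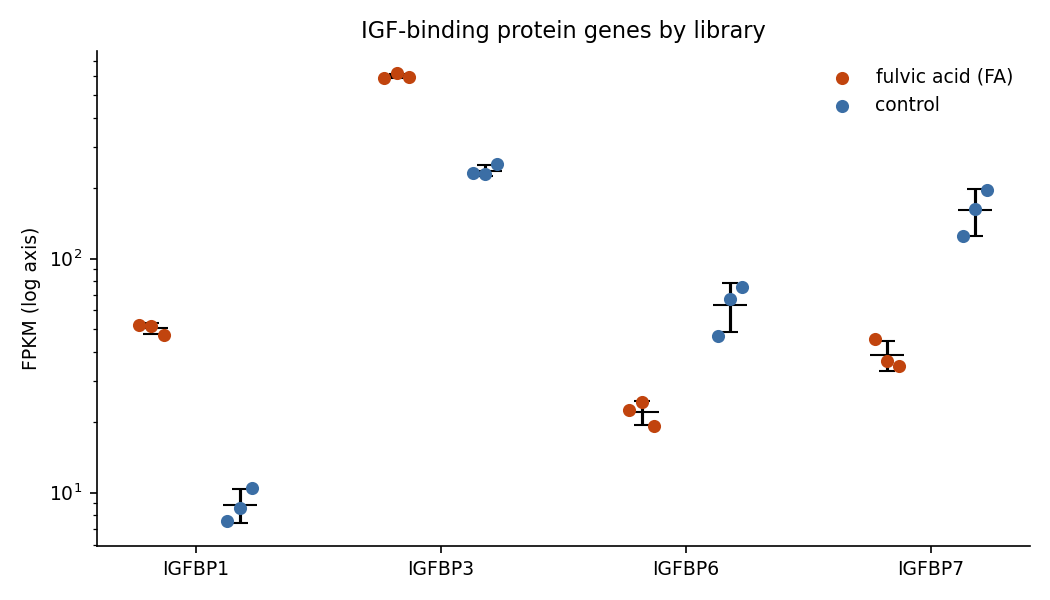
FPKM (log axis) of the 4 genes in each library, with FA libraries left of control libraries, points for single libraries and bars for mean ± SD (n = 3 each). IGFBP1 and IGFBP3 sit higher in all FA libraries and IGFBP6 and IGFBP7 lower, with no overlap between groups. The same lack of overlap holds for 99.8% of the listed genes.

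IGFBP6 had 22.5, 24.4 and 19.4 FPKM in FA 1, 2 and 3, against 46.8, 67.5 and 75.8 FPKM in control 1, 2 and 3. The groups did not overlap, as in 99.8% of the listed genes, but the controls spread more widely, with control 1 lowest. The coefficient of variation was 11.6% in FA libraries and 23.5% in control libraries. Counts were 1048, 1278 and 1149 in FA libraries and 2361, 3834 and 4174 in control libraries. The mean was 22.1 ± 2.6 FPKM in FA libraries and 63.4 ± 14.9 FPKM in control libraries (SD, n = 3 each). The log2 fold change was -1.51 with a standard error of 0.18, and -1.69 without control 1, the largest shift of any member.

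IGFBP7 had 45.3, 36.6 and 34.7 FPKM in FA 1, 2 and 3, against 124.4, 163.3 and 196.4 FPKM in control 1, 2 and 3. Control 1 was again the lowest control and still had 2.75 times the level of the highest FA library. Counts were 2573, 2329 and 2509 in FA libraries and 7697, 11355 and 13266 in control libraries. The mean was 38.9 ± 5.6 FPKM in FA libraries and 161.4 ± 36.0 FPKM in control libraries (SD, n = 3 each). The log2 fold change was -2.06 with a standard error of 0.18, and -2.21 without control 1. Of the 1427 bases of its main transcript, 364 (25.5%) are also exonic in its antisense gene IGFBP7-AS1 or in POLR2B, and whether counting used strand is not given, so counts of IGFBP7 may be shared. The main transcripts of the other members share 0 exonic bases with other genes.

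FPKM of all 4 genes did not overlap between groups, as was so for 99.8% of the listed genes. The fold changes of the members can be placed among those of the table. The median log2 fold change of the authors' deposited table was 1.35 over its 117 higher genes and -1.36 over its 342 lower genes. IGFBP1 was well above the first value and IGFBP3 close to it, while IGFBP7 and IGFBP6 were below the second. By log2 fold change IGFBP3 ranked 53 of 117 higher genes, and IGFBP7 and IGFBP6 ranked 68 and 139 of 342 lower genes. Scalings computed from the listed genes alone moved every fold change upwards, by a median of 1.24 (log2) with TMM, and IGFBP6 and IGFBP7 then stood at -0.26 and -0.81, still lower.

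**Figure D2:**
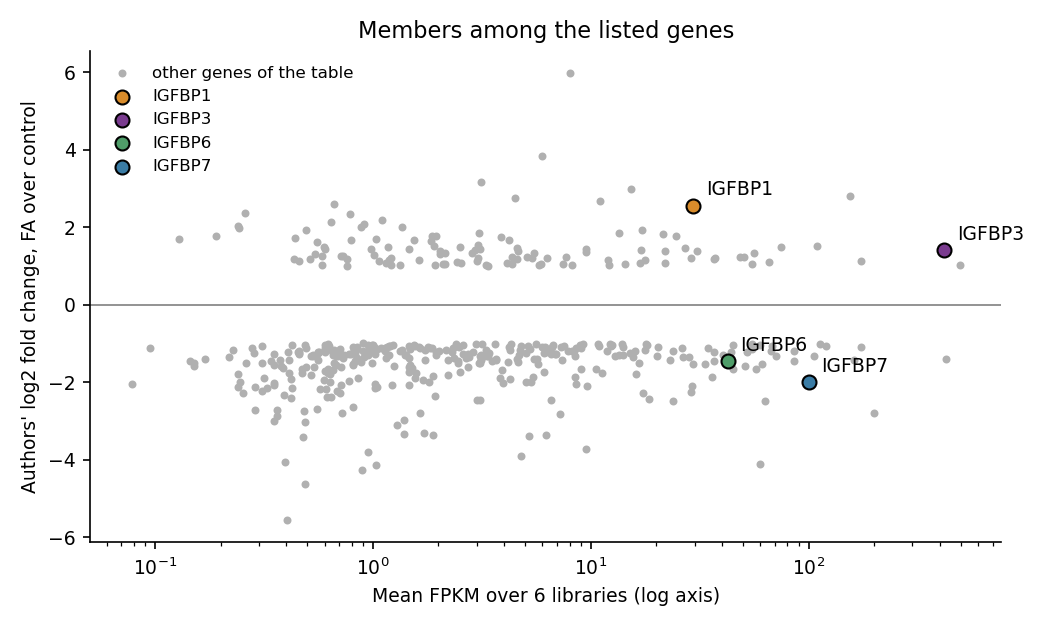
Authors' log2 fold change of FA over control against the mean FPKM over 6 libraries (log axis) for the 459 listed genes, in grey, with the 4 members coloured. The members lie towards the right and on both sides of 0. No gene lies near 0 because the table was selected on its fold change.

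Because FPKM is scaled by length, levels of different members can be summed and set side by side. The lengths implied by counts and FPKM were 1653, 2260, 1165 and 1423 bases for IGFBP1, IGFBP3, IGFBP6 and IGFBP7. The nearest annotated transcripts have 1653, 2262, 1169 and 1427 bases. Each was picked as the nearest in length among the 3, 11, 5 and 3 transcripts of its gene, so closeness is partly built in. The summed level of the 4 genes was 710.8, 731.1 and 698.9 FPKM in FA 1, 2 and 3, against 410.5, 468.6 and 534.8 FPKM in control 1, 2 and 3. All FA libraries were above all control libraries. IGFBP3, the largest part of every sum, was listed because it was called higher, which made this separation likely. Means were 713.6 ± 16.3 FPKM in FA libraries and 471.3 ± 62.2 FPKM in control libraries (SD, n = 3 each), a ratio of 1.51, or 1.42 without control 1. The mean difference of 242.3 FPKM was made up of 364.7 from IGFBP3, 41.4 from IGFBP1, -41.3 from IGFBP6 and -122.5 from IGFBP7. Without IGFBP3 the direction of the sum turned: IGFBP1, IGFBP6 and IGFBP7 together had 119.8, 112.7 and 101.3 FPKM in FA libraries, against 178.8, 239.4 and 282.7 FPKM in control libraries. IGFBP6 and IGFBP7 alone summed to 61.0 ± 6.8 FPKM in FA libraries and 224.8 ± 50.7 FPKM in control libraries.

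The composition of the summed level changed with it. IGFBP3 made up 83.1%, 84.6% and 85.5% of the sum in FA 1, 2 and 3, against 56.4%, 48.9% and 47.1% in control 1, 2 and 3. IGFBP7 made up 6.37%, 5.01% and 4.97% in FA libraries, against 30.3%, 34.9% and 36.7% in control libraries. IGFBP6 made up 3.17%, 3.34% and 2.77% in FA libraries, against 11.4%, 14.4% and 14.2% in control libraries. No share overlapped between groups, which the choice of members called higher or lower made likely. Control 1 was the control closest to the FA libraries for these 3 members. IGFBP1 remained a minor member, at 7.32%, 7.06% and 6.75% in FA libraries, against 1.85%, 1.83% and 1.96% in control libraries. IGFBP1 and IGFBP3 together held 91.5% ± 0.91 of the sum in FA libraries and 52.7% ± 4.9 in control libraries (SD, n = 3 each). Without control 1 the control share of IGFBP3 was 48.0%.

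**Figure D3:**
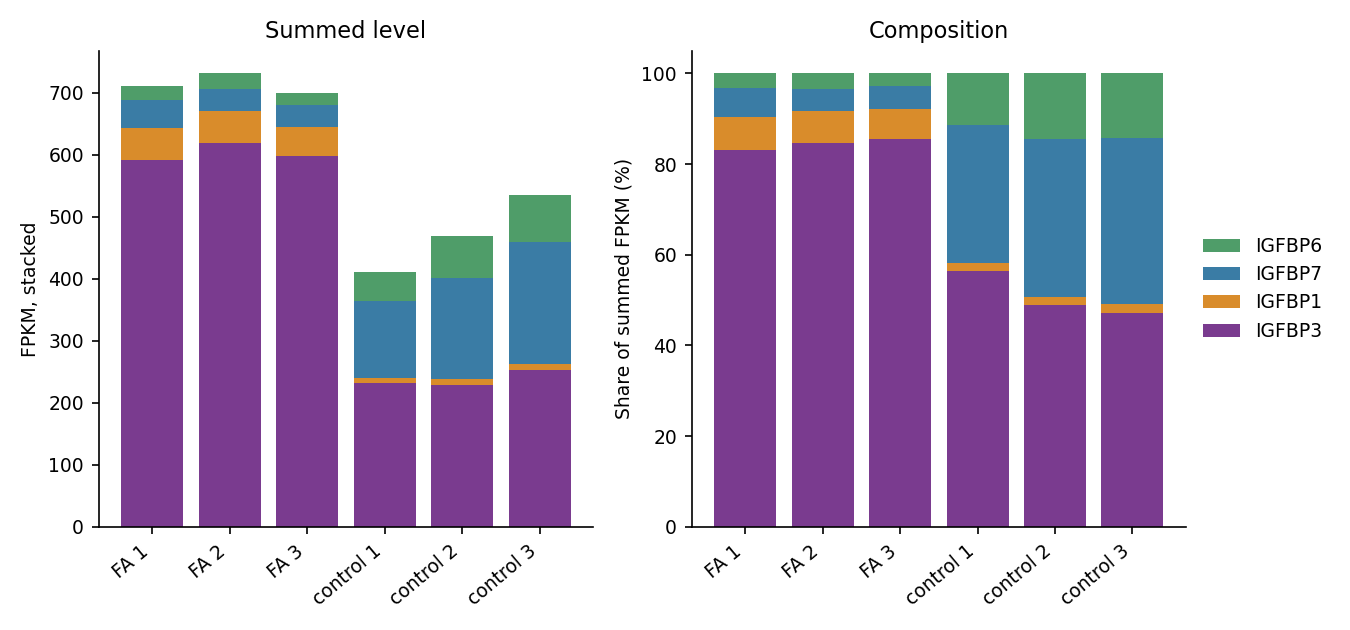
Stacked FPKM of the 4 genes (left) and their shares of the summed FPKM in percent (right), one bar per library, FA libraries left of control libraries. The sum is 698.9 to 731.1 FPKM with FA and 410.5 to 534.8 FPKM without, and the IGFBP3 share is 83.1% to 85.5% against 47.1% to 56.4%.

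The order of the levels also differed. With FA it was IGFBP3, IGFBP1, IGFBP7 and IGFBP6, and in control libraries it was IGFBP3, IGFBP7, IGFBP6 and IGFBP1, in each library of the group. IGFBP1, the lowest member in all control libraries, stood above IGFBP6 and IGFBP7 in all FA libraries. In FA libraries the neighbours IGFBP1 and IGFBP7 were close, at 47.2 to 52.0 FPKM and 34.7 to 45.3 FPKM, and in FA 1 the level of IGFBP1 was 1.15 times that of IGFBP7. In control libraries the ranges of neighbours in the order did not overlap, the closest being IGFBP3 from 229.2 FPKM and IGFBP7 up to 196.4 FPKM.

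Ratios within a library do not depend on how libraries are scaled. The FPKM of IGFBP1 was 1.15, 1.41 and 1.36 times that of IGFBP7 in FA 1, 2 and 3, against 0.0610, 0.0525 and 0.0534 times in control 1, 2 and 3. This was the largest swing of any pair, with a mean log2 ratio of 0.38 ± 0.16 in FA libraries and -4.17 ± 0.12 in control libraries (SD, n = 3 each), a difference of 4.55. For IGFBP1 to IGFBP6 the mean log2 ratio was 1.19 ± 0.10 in FA libraries and -2.82 ± 0.18 in control libraries, a difference of 4.01. Pairs that changed in the same direction also shifted, by less. IGFBP3 had 11.4, 11.98 and 12.7 times the level of its neighbour IGFBP1 in FA libraries, against 30.5, 26.8 and 24.1 times in control libraries. IGFBP7 had 1.498 to 2.01 times the level of IGFBP6 in FA libraries, against 2.42 to 2.66 times in control libraries. Within the rising pair and within the falling pair the ratios did not overlap between groups of 3 libraries, and this was not tested. For a rising with a falling member, separate ratios follow from the choice of the members.

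**Figure D4:**
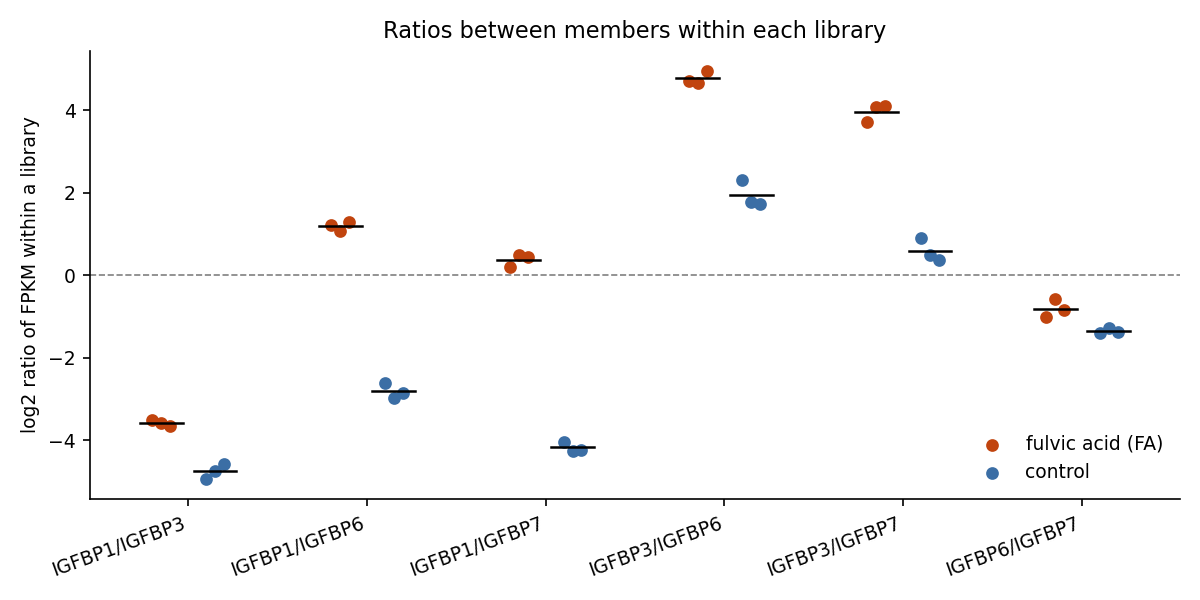
Log2 ratio of FPKM between 2 members within each library for all 6 pairs, FA libraries left of control libraries, with lines at the group means. IGFBP1/IGFBP6 and IGFBP1/IGFBP7 lie above 0 in all FA libraries and below 0 in all control libraries, and IGFBP6/IGFBP7 shows the smallest difference.

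Genes with the pattern most like each member were sought among 370 annotated genes averaging 50 counts or more, by the root mean square difference of centred log2(FPKM + 0.01) over the 6 libraries. Likeness here reflects the group difference and the scatter of single libraries alike. For IGFBP1 the nearest were HLA-DMB, IL1RN and SH3BGR, at 0.16, 0.22 and 0.24 log2 units. For IGFBP3 they included ATF3, a stress-induced transcription factor, in rank 1 and BHLHA15 in rank 3, at 0.098 and 0.11. For IGFBP6 they were S100A2, IFITM3 and TSPAN15, at 0.067, 0.068 and 0.086. These 3 genes shared the low value of control 1: S100A2 had 24.2, 23.9 and 20.3 FPKM in FA 1, 2 and 3, against 44.0, 69.9 and 74.8 FPKM in control 1, 2 and 3. For IGFBP7 they were SERPINA3, an acute-phase protease inhibitor, SAA1, an acute-phase protein, and TGM2, a transglutaminase, at 0.12, 0.12 and 0.13. Over 20% of the exonic bases of SH3BGR (62.8%), IFITM3 (21.3%) and SERPINA3 (31.8%) are also exonic in other genes, and SAA1 has a near-identical copy, so their counts may be shared. Counts in control 1, 2 and 3 were low for IL1RN (11, 14 and 24), SH3BGR (36, 32 and 35) and BHLHA15 (27, 34 and 30). Their likeness is thus less certain. Members were less alike: IGFBP7 and IGFBP6 differed by 0.30 and IGFBP1 and IGFBP3 by 0.59.

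The IGF system around these genes was looked up from 6 lists with 85 genes, of which 12 were in the table, 1 higher and 11 lower. The background in the table is 25.5% higher and 74.5% lower. The median log2 fold change of the 12 was -1.46 in the authors' deposited table, beside -1.22 over all 459 genes. None of the 7 IGF ligands and receptors on the lists and none of the 5 other binding proteins was among the listed genes, and their levels were not analysed here.

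Of 24 genes of IGF and insulin signalling, 2 were in the table. FOXO1, a transcription factor that insulin and IGF signalling keeps out of the nucleus and that is known to act on the IGFBP1 promoter, had 51.6, 49.0 and 52.0 FPKM in FA 1, 2 and 3, against 25.2, 22.4 and 21.8 FPKM in control 1, 2 and 3. Its log2 fold change was 1.13 with a standard error of 0.12. IRS1, the adaptor between these receptors and PI3 kinase, had 2.19, 1.93 and 1.98 FPKM in FA libraries, against 4.18, 4.50 and 4.17 FPKM in control libraries. The groups did not overlap in either gene, as was so for 99.8% of the listed genes. Of 18 genes listed as regulated by FOXO factors, 1 was in the table, TNFSF10, the death ligand TRAIL, which was lower, at 3.46 ± 0.40 FPKM in FA libraries and 15.7 ± 3.6 FPKM in control libraries (SD, n = 3 each).

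Of 31 proteases reported to cut IGF-binding proteins and inhibitors of such proteases, 6 were in the table and all 6, each a protease, were lower, where 74.5% of all listed genes were lower. Their median log2 fold change in the authors' deposited table was -1.46, close to the -1.36 over all its lower genes. MMP7, matrilysin, had 10.8, 4.05 and 4.28 FPKM in FA 1, 2 and 3, against 112.2, 106.2 and 122.4 FPKM in control 1, 2 and 3. The plasminogen activators PLAU (urokinase) and PLAT (tissue type) averaged 14.6 ± 1.2 and 1.91 ± 0.30 FPKM in FA libraries, and 44.1 ± 5.8 and 4.80 ± 0.49 FPKM in control libraries. The collagenase MMP1 and the gelatinase MMP2 had log2 fold changes of -2.50 and -1.45, and the lysosomal protease CTSB one of -1.15.

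Of 10 genes for proteins with an IGFBP-type domain, CYR61 and CTGF, matricellular proteins of the CCN family, were in the table. CTGF had 4.14, 3.24 and 2.35 FPKM in FA 1, 2 and 3, against 13.9, 13.4 and 14.4 FPKM in control 1, 2 and 3, and CYR61 averaged 16.6 ± 1.7 FPKM in FA libraries and 50.4 ± 3.2 FPKM in control libraries. Of 9 cell-surface and other partners of IGF-binding proteins, 2 were in the table. ITGB3, the integrin beta-3 chain, had 0.402, 0.331 and 0.448 FPKM in FA libraries, against 2.76, 2.97 and 2.95 FPKM in control libraries. LRP1, an endocytic receptor that binds IGFBP3, averaged 0.819 ± 0.060 FPKM in FA libraries and 1.91 ± 0.17 FPKM in control libraries. Of the exonic bases of ITGB3 and PLAU, 51.6% and 31.1% are also exonic in other genes, so these counts may be shared. Beside IGFBP1 and IGFBP3, FOXO1 was the gene of these 6 lists that was higher.

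**Figure D5:**
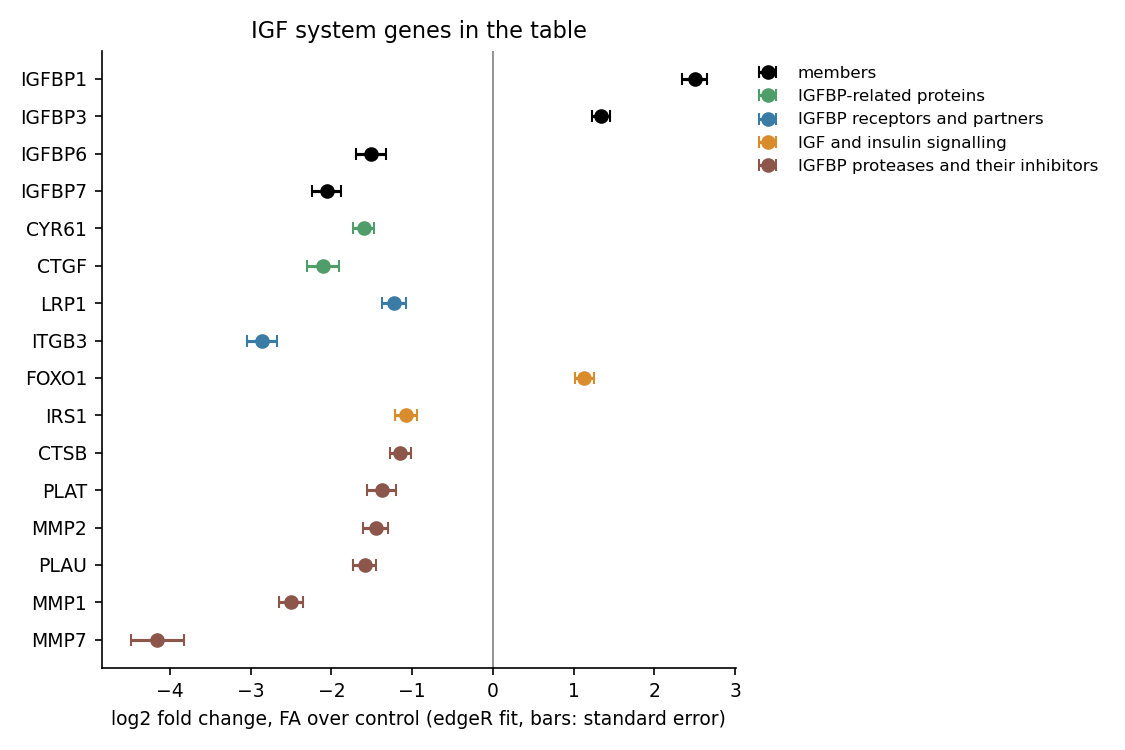
Log2 fold change of FA over control with its standard error (edgeR fit over 459 genes) for the 4 members and the 12 listed genes of the IGF system. IGFBP1, IGFBP3 and FOXO1 lie to the right of 0 and the others to the left, from -1.08 for IRS1 to -4.16 for MMP7.

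Genes of signals known to act on members were read from 4 further lists. Of 18 genes of TGF-beta and SMAD signalling, a pathway known to raise IGFBP3 and IGFBP7 in many cells, 7 were in the table and all 7 were lower, where 74.5% of all listed genes were lower. Their median log2 fold change was -2.02 in the authors' deposited table, beside -1.36 over all its lower genes, and nothing particular to the pathway was tested. The 7 genes were TGFB2, TGFBI, PMEPA1, SMAD6, SMAD7, ID1 and ID3, and they were not split by the ligand that acts on them. IGFBP7 was lower with them and IGFBP3 was higher. Of these 7, TGFB2, a ligand, averaged 0.702 ± 0.077 FPKM in FA libraries and 2.24 ± 0.60 FPKM in control libraries, and SMAD7, an inhibitor of the pathway, 4.64 ± 0.18 FPKM in FA libraries and 11.1 ± 1.2 FPKM in control libraries. Of 16 genes of the amino acid response and hypoxia, stresses known to raise IGFBP1, 2 were in the table. ATF3 was higher, at 79.4 ± 3.4 FPKM in FA libraries and 33.4 ± 1.2 FPKM in control libraries, and CA9, with a mean of only 40 counts, was lower, at 0.296 ± 0.043 FPKM in FA libraries and 0.767 ± 0.078 FPKM in control libraries. Of the exonic bases of TGFB2 and CA9, 26.6% and 38.5% are also exonic in other genes. Of 8 AHR targets 6 were in the table, 5 higher and 1 lower, where 25.5% of all listed genes were higher. Among them was CYP1A1, the gene of the study's title, at 15.5, 16.4 and 15.4 FPKM in FA libraries, against 0.191, 0.266 and 0.269 FPKM in control libraries. It had the largest log2 fold change of the 6, 5.91. CYP1B1, TIPARP, AHRR and ALDH3A1 were higher by 2.75, 1.78, 1.71 and 1.16. NEDD9, with a mean of only 54.5 counts, was the lower one, at -2.18. Nothing particular to AHR was tested.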

How the data were processed

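The authors deposited raw read counts and FPKM per gene and library, with an FDR (adjusted p-value) and a log2 fold change of FA over control, per the file headers. The submitters' processing notes name the build GRCh38. The values were made with an aligner, counter and test not given in the sources used here. Of 459 rows, 399 carry Ensembl identifiers, all found in GENCODE release 29. Depth was recovered from count to FPKM ratios of 180 genes and scaled on 16 genes with 1 transcript. edgeR 4.0.16 (R 4.3.3) was fitted to all counts (quasi-likelihood, group only, library sizes set to recovered depth). Standard errors are the absolute log2 fold change over the square root of F. Spread between replicates was estimated with the listed genes only, which were selected as called, so standard errors may be too small. The script was checked on simulated counts with balanced rises and falls, unchanged genes and given depths. These data differ, since only called genes are listed, so that check does not bear on the values here. Shares, sums and ratios use FPKM without a pseudocount. Upstream sequences are from RefSeq (GRCh38.p14) and matched 2 of 4 members by symbol, of which IGFBP3 is shown. Members, the 10 lists and the rule for named genes (members, listed genes in the table, and the 3 genes most like each member) were chosen with earlier results of these data known. Same-numbered libraries did not deviate together (correlations -0.014, 0.079 and -0.16), so numbers were not taken as pairs. COL1A1 and the keratin genes near IGFBP6 were named after their values were seen. Figures were drawn with matplotlib 3.10.9. Certain items are not reported here and were left out of the lists and their counts.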

Additional observations from a re-analysis of the deposited data

How the results depend on the processing

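Of 122 alternatives over 12 results, 102 moved the value by less than 1 SD between replicates, 20 moved it further and 0 reversed it. Many of the 102 left out 1 library. With 3 libraries per group that can hardly move a difference of means by 1 SD, so their number is no measure of robustness. A filter at a mean of 50 counts also left the log2 fold changes as they were. Scaling computed from the listed genes alone shifts all genes, the median by 0.24 (log2) with column totals, 1.24 with TMM and 1.23 with DESeq2 size factors, by its own construction since 74.5% of the genes are lower. The log2 fold change of IGFBP1 was 2.74, 3.75 and 3.74 under these 3 scalings and that of IGFBP3 1.58, 2.59 and 2.58. IGFBP6 and IGFBP7 stayed lower, at -0.26 and -0.81 with TMM and -0.27 and -0.82 with DESeq2, so relative to the shift their changes differ little from the above. With the library factors behind the authors' values IGFBP3 was at 1.40. The log2 ratio of the summed level, 0.60, was 0.83 from counts without length, and, in rescalings chosen after seeing the data, 0.84 with column totals and 1.85 with TMM. From counts without length the differences in share were 3.74, 26.1, -6.84 and -23.0 percentage points for IGFBP1, IGFBP3, IGFBP6 and IGFBP7, against 5.16, 33.6, -10.2 and -28.5 from FPKM. With 1 added to FPKM the differences in log2 ratio of IGFBP1 to IGFBP6 and to IGFBP7 were 3.84 and 4.39. Leaving out each library in turn gave log2 fold changes of 2.40 to 2.63 for IGFBP1, 1.31 to 1.38 for IGFBP3, -1.69 to -1.36 for IGFBP6 and -2.21 to -1.89 for IGFBP7, and 0.51 to 0.70 for the summed level. A replicate block gave 2.51, 1.34, -1.49 and -2.04 and changed no direction. The table holds only called genes, so these values cannot show how the family would look among all expressed genes, and IGFBP1 in control libraries rests on the fewest counts, 546 to 822.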
